A study of Mus musculus with 16 samples.

Results

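The abundance of a cytokine mRNA in a tissue depends on how fast it is transcribed and on how fast it is degraded. To describe the second side in aged mice after knockdown of *Fos*, a subunit of the AP-1 transcription factor, the mRNA levels of 10 RNA-binding proteins that destabilise or stabilise cytokine mRNAs were followed in RNA-seq libraries of kidney and liver. The genes were *Zc3h12a*, *Zc3h12c*, *Zc3h12d*, *Zfp36*, *Zfp36l1*, *Zfp36l2*, *Rc3h1*, *Rc3h2*, *Elavl1* and *Khsrp*, taken as a named list from the 24984 genes of the count tables. The list was chosen by function, but *Zc3h12a* was selected on its lower kidney level in shFos, which was known when the list was drawn up. Kidney values of the members in shFos against NT are therefore given as a description. Members that pass a threshold in that contrast are named and counted as a description only. Genes of other lists were named for small p-values in the same contrast, so their kidney p-values are descriptions as well. Wild-type (WT) female C57BL/6 mice labelled 24 months old had received an AAV8 vector by tail vein, carrying either a hairpin against *Fos* (labelled shFOS, shFos here) or a non-targeting hairpin (labelled shNT, NT here), and both tissues were collected some months later. Each of the 4 groups, NT and shFos kidney and NT and shFos liver, held 4 libraries, 16 in all. All of the animals therefore carried a vector, no untreated mice were included, the promoter that drives the hairpin is not given in the sources used here, and the RNA came from whole tissue.

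Most of these proteins read short elements in the 3′ untranslated region (UTR) of their targets. Tristetraprolin, the product of *Zfp36*, and its relatives encoded by *Zfp36l1* and *Zfp36l2* bind AU-rich elements through a pair of zinc fingers and bring in the CCR4-NOT deadenylase, which shortens the poly(A) tail. The *Zc3h12* genes encode the Regnase endoribonucleases, of which the *Zc3h12a* product cuts stem-loops in inflammatory mRNAs that are being translated, and the Roquin proteins encoded by *Rc3h1* and *Rc3h2* bind related stem-loops and also recruit deadenylases. *Khsrp* encodes KSRP, which promotes decay of AU-rich mRNAs, whereas the *Elavl1* product HuR binds similar elements and stabilises the mRNA.

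Reads assigned to genes numbered 14194543 to 15534665 in the kidney libraries and 16652150 to 18300277 in the liver libraries. The labelled tissues carried their own markers: the summed level of 6 kidney tubule markers was 11044 to 17181 CPM (reads of a gene scaled to a common library size) in kidneys and 0.808 to 2.33 CPM in livers, where *Aqp2* and *Slc12a1* had at most 3 reads in every library, and the sum of 6 hepatocyte markers was 45198 to 191240 CPM in livers and 175 to 989 CPM in kidneys. *Fos* itself was measured at 6.71, 5.26, 4.23 and 5.29 CPM in the NT kidneys and at 2.57, 4.12, 3.93 and 2.30 CPM in the shFos kidneys, which did not overlap (exact two-sided permutation test, p = 0.0286, the smallest that 4 against 4 libraries can give, and 0.343 after Benjamini-Hochberg adjustment over 12 such tests). In livers the *Fos* means were 2.51 ± 1.08 CPM in NT and 1.82 ± 0.637 CPM in shFos (SD, n = 4) and the groups overlapped (exact permutation p = 0.343). Some libraries stood apart from the others of their group. Liver NT replicate 4 gave chi-square values per degree of freedom from 357 to 461 when its counts were compared with the other NT livers, which gave 43.1 to 64.2 with each other, and kidney NT replicate 4 gave 67.2 to 71.6 where the other NT kidneys gave 7.50 to 13.7. In the shFos kidneys, leaving out replicate 1 raised the number of genes called by edgeR from 0 to 4126. By chi-square that library was not set apart. It gave 28.8 to 61.9 with the other shFos kidneys, which gave 23.3 to 51.4 with each other.

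All 10 mRNAs were detected in all 16 libraries and passed the low-count filter in both tissues. The lowest reading was 41 reads, for *Zc3h12c* in an NT liver, and the highest was 5071 reads, for *Zfp36l1* in the same library. To see whether these mRNAs carry the element that several of the proteins bind, the nonamer TTATTTATT (written as DNA) was searched on the sense strand of the annotated 3′ UTR of 1 transcript per gene. It was found in 6 of the 10 members, *Zfp36*, *Zfp36l1*, *Zfp36l2*, *Rc3h1* and *Rc3h2* with 1 copy each and *Elavl1* with 8 overlapping or separate copies, and in none of *Zc3h12a*, *Zc3h12c*, *Zc3h12d* and *Khsrp*. Over 19864 protein-coding genes with a 3′ UTR the share with a nonamer was 6.9%, and over the 10106 genes whose 3′ UTR was 774 to 7181 bases long, the range of the members, it was 10.7%. The shorter core ATTTA occurred 3.32 times per kb in the members and 1.93 times per kb over all genes. Windows of 30 bases around 1 nonamer of each member that has one are shown because these are the elements that the *Zfp36* and *Elavl1* proteins are known to bind, with the nonamer, or a run of overlapping nonamers, in capitals (DNA letters, 5′ to 3′, mm10):
Zfp36: tatgacgactTTATTTATTgtattaagatt
Zfp36l1: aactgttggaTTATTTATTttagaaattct
Zfp36l2: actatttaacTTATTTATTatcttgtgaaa
Rc3h1: actttactcaTTATTTATTgagatgaggag
Rc3h2: caaagacattTTATTTATTttactctgtaa
Elavl1: tgaaaaTTATTTATTTATTTATTTATTttt

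For comparison, the same window in *Tnf*, the classic tristetraprolin target, and in *Cxcl1*, a neutrophil chemokine that belonged to the target list below, read as follows:
Tnf: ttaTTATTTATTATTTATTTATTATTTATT
Cxcl1: atttatgtatTTATTTATTccacaaagtgt

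The window of *Elavl1* thus held the nonamer in overlapping repeats like that of *Tnf*, whereas the windows of the other members held 1 copy. A match is a sequence of letters in the annotated transcript, and binding was not measured.

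Since the hairpin targets an AP-1 subunit, the RefSeq promoters (250 bases before to 50 after the start, GRCm38.p6) were searched on both strands for the AP-1 heptamer TGANTCA, for the cyclic AMP response element TGACGTCA and for the CArG box bound by serum response factor. Entries were found for 9 of the 10 members, and *Zfp36l2* was the one without. The AP-1 heptamer occurred in the promoters of 2 members, *Zfp36l1* and *Rc3h1*, and in 8.97% of all genes with an entry. The CArG box occurred in *Zfp36* alone among the members and in 1.81% of all genes, and the cyclic AMP response element in no member and in 2.03% of all genes. The promoter of *Zc3h12a* held none of the 3. The matching windows, with the motif in capitals and each written on the strand of its gene, were:
Zfp36l1, chr12:80113124-80113153, minus strand: gaccgcatggcTGATTCAacctcagtgtca
Rc3h1, chr1:160906267-160906296, plus strand: gttggggccggTGACTCAgagctttcctcc
Zfp36, chr7:28379267-28379296, minus strand: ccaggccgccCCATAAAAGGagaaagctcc

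The heptamers began 129 bases (*Zfp36l1*) and 133 bases (*Rc3h1*) before the start site, and the CArG box of *Zfp36* began 58 bases before it. No match says only that these letters are not in the window searched.

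To place the members relative to each other, levels were divided by transcript length. In NT kidneys *Zfp36l1* was the highest at 88.6 ± 8.41 CPM per kb (SD, n = 4 here and below), and its 4 libraries did not overlap with those of the next gene. It was followed by *Zfp36* (23.1 ± 9.24 CPM per kb), *Zfp36l2* (21.9 ± 2.57) and *Khsrp* (21.1 ± 1.06), whose ranges overlapped from one to the next. *Elavl1* came next with 9.92 ± 1.13 CPM per kb. *Rc3h2* (5.04 ± 0.348) and *Zc3h12a* (4.43 ± 0.461) overlapped, *Rc3h1* stood below them at 3.03 ± 0.18, and *Zc3h12c* (1.98 ± 0.169) and *Zc3h12d* (1.38 ± 0.456) were lowest and overlapped. The second rank of *Zfp36* in NT kidneys rested on NT replicate 4, since without it the mean was 18.5 ± 1.67 CPM per kb (n = 3), below *Zfp36l2* (21.1) and *Khsrp* (20.7) in the same 3 libraries. In the NT livers *Zfp36l1* was at 83.3 ± 22.1 and *Zfp36* at 31.2 ± 7.04 CPM per kb, with no overlap between them. There *Khsrp* (13.8 ± 1.24), *Zfp36l2* (8.80 ± 2.81) and *Elavl1* (6.67 ± 0.678) followed, each overlapping the next, then *Zc3h12a* (3.69 ± 1.51), *Rc3h2* (2.50 ± 0.169), *Zc3h12d* (2.05 ± 0.809) and *Rc3h1* (1.78 ± 0.148) in an overlapping series, and *Zc3h12c* was last at 0.439 ± 0.0994 without overlap. The highest member thus exceeded the lowest 64.1-fold in NT kidneys and 189.6-fold in NT livers. The transcript chosen matters for part of this order: with the length of all annotated exons in place of 1 transcript, *Rc3h2* moved from rank 6 to rank 8 and *Zfp36* from rank 2 to rank 4 in NT kidneys.

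In the kidney, the member whose treatments did not overlap was *Zc3h12a*, the Regnase that degrades *Il6* and other inflammatory transcripts (ENSMUSG00000042677.7, chr4:125118423-125127840, minus strand). It was measured at 11.4, 13.9, 11.1 and 12.4 CPM (TMM-scaled within kidney) in the NT libraries and at 8.10, 6.72, 7.58 and 5.76 CPM in the shFos libraries. Every shFos kidney lay below every NT kidney, with a shFos-to-NT ratio of 0.577 and a log2 fold change of -0.79 ± 0.15 (standard error). The log2 fold change ranged from -0.90 to -0.71 when each library was left out in turn. After correction for GC content it was -0.61 ± 0.14, and -0.62 ± 0.17 with a replicate block added. In bulk tissue such a difference cannot be told apart from a change in the share of cells that express the gene. Non-overlap in the lower direction occurred for 8.04% of the 14892 genes tested in kidney, in the higher direction for 9.16% and in either for 17.2%. Since this contrast brought *Zc3h12a* to the list, nothing is read from the count of 1 lower and 0 higher of 10 members.

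Its paralog *Zc3h12c*, which encodes a related Regnase, stood on the other side of 0. It was measured at 11.04, 12.1, 11.9 and 13.5 CPM in NT kidneys and at 10.99, 17.7, 30.2 and 20.96 CPM in shFos kidneys. Replicates 2 to 4 of shFos lay above all NT kidneys and replicate 1 lay just below them, so that the groups overlapped. The log2 fold change was 0.72 ± 0.26, 0.88 ± 0.18 without shFos replicate 1, 0.45 without shFos replicate 3, the highest library, and 0.50 ± 0.22 after correction for GC content. *Zc3h12d*, the remaining paralog among the members, averaged 5.66 ± 1.86 CPM in NT and 4.51 ± 0.270 CPM in shFos (SD, n = 4), with overlap. Its log2 fold change of -0.33 ± 0.25 ranged from -0.51 without NT replicate 4 to -0.13 without NT replicate 3. Beside these levels the 5 endothelial markers were all positive in kidney (median log2 fold change 0.30), and their sum was 544, 520, 552 and 350 CPM in NT and 630, 664, 524 and 574 CPM in shFos kidneys, which overlapped (exact permutation p = 0.0857, adjusted p = 0.411). Their part in the *Zc3h12a* and *Zc3h12c* values was not tested.

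**Figure D1:**
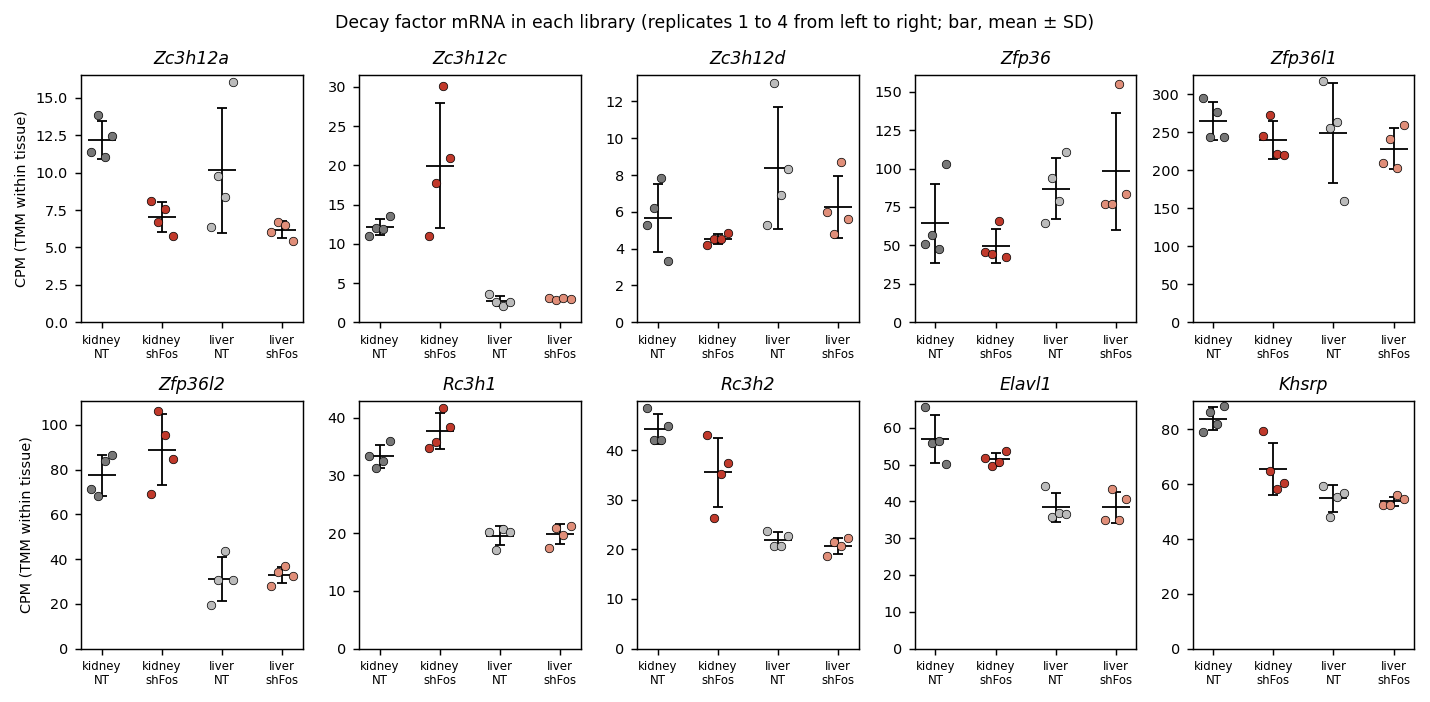
Level of each of the 10 mRNAs in every library, on a linear axis in CPM after TMM scaling within a tissue, with points for replicates 1 to 4 from left to right and a bar for the mean ± SD of 4 libraries. The NT and shFos kidneys separate for *Zc3h12a*, shFos replicate 1 lies with the NT kidneys for *Zc3h12c*, *Rc3h2* and *Khsrp*, and 1 high library stands out for *Zfp36* in 3 of its 4 groups.

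Among the AU-rich element binding zinc finger genes no separation was seen in kidney. *Zfp36* was measured at 50.7, 56.6, 47.4 and 102.6 CPM in NT kidneys and at 45.5, 44.5, 65.8 and 42.4 CPM in shFos kidneys. Replicate 4 of NT and replicate 3 of shFos were the high libraries of their groups, and the log2 fold change of -0.38 ± 0.26 shrank to -0.06 without NT replicate 4. In NT replicate 4 *Lcn2*, an acute-phase gene, was at 217.5 CPM against 47.9 to 69.4 CPM in the other NT kidneys. The neutrophil marker sum was at 30.6 CPM against 8.68 to 13.0 CPM and the hepatocyte marker sum at 989 CPM against 175 to 405 CPM. Other sums were lower there: macrophage (389 against 731 to 1067 CPM), T cell (5.16 against 27.4 to 54.7 CPM), B and plasma cell (13.0 against 108 to 270 CPM) and endothelial markers (350 against 520 to 552 CPM). The part of these differences in the *Zfp36* value was not tested. *Zfp36l1*, the most abundant member per kb, averaged 265.0 ± 25.1 CPM in NT and 240.0 ± 25.0 CPM in shFos, with a log2 fold change of -0.14 ± 0.11 that ranged from -0.21 to -0.09 with each library left out. *Zfp36l2* averaged 77.4 ± 9.08 CPM and 88.9 ± 15.8 CPM, and its log2 fold change of 0.20 ± 0.14 fell to 0.10 without shFos replicate 2.

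The Roquin genes differed in sign in kidney. *Rc3h2* was measured at 48.4, 42.1, 41.9 and 44.9 CPM in NT and at 43.1, 26.3, 35.1 and 37.4 CPM in shFos. Replicate 1 of shFos lay within the NT range and replicates 2 to 4 lay below it. The log2 fold change was -0.32 ± 0.14, and -0.47 ± 0.12 without shFos replicate 1 and -0.20 ± 0.11 without shFos replicate 2, the lowest library. After correction for GC content it was -0.53 ± 0.16, and -0.56 ± 0.14 with a replicate block added. *Rc3h1* averaged 33.3 ± 1.98 CPM in NT and 37.7 ± 3.06 CPM in shFos, a log2 fold change of 0.18 ± 0.09, which became -0.01 after correction for GC content.

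*Khsrp*, the decay-promoting KSRP, was measured at 79.0, 86.2, 81.9 and 88.4 CPM in NT kidneys and at 79.4, 64.9, 58.1 and 60.6 CPM in shFos kidneys. Again shFos replicate 1 lay within the NT range and the other 3 below it, and the log2 fold change was -0.35 ± 0.11, -0.49 ± 0.08 without that library and -0.18 after correction for GC content. *Elavl1*, the stabilising HuR, averaged 57.0 ± 6.49 CPM in NT and 51.4 ± 1.78 CPM in shFos, a log2 fold change of -0.15 ± 0.09 that ranged from -0.20 to -0.07 with each library left out and was -0.27 ± 0.09 after correction for GC content.

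As a list, 7 members were negative and 3 positive in kidney and the median of their log2 fold changes was -0.23, whereas over all genes tested 49.7% were negative and the median was 0.00. With edgeR's quasi-likelihood test and Benjamini-Hochberg adjustment 0 members were called, as were 0% of all genes, and an unadjusted p under 0.05 was found for 4 members (*Zc3h12a*, *Khsrp*, *Rc3h2* and *Zc3h12c*) and 31.9% of all genes. DESeq2 called 2 members, *Zc3h12a* and *Khsrp*, beside 18.3% of all genes, and a fit of all 16 libraries called *Zc3h12a* beside 6.45%. Without shFos replicate 1 edgeR called the same 4 members that had an unadjusted p under 0.05 in the full set, beside 27.5% of all genes. The members were chosen with this contrast in view, and these counts are descriptions.

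**Figure D2:**
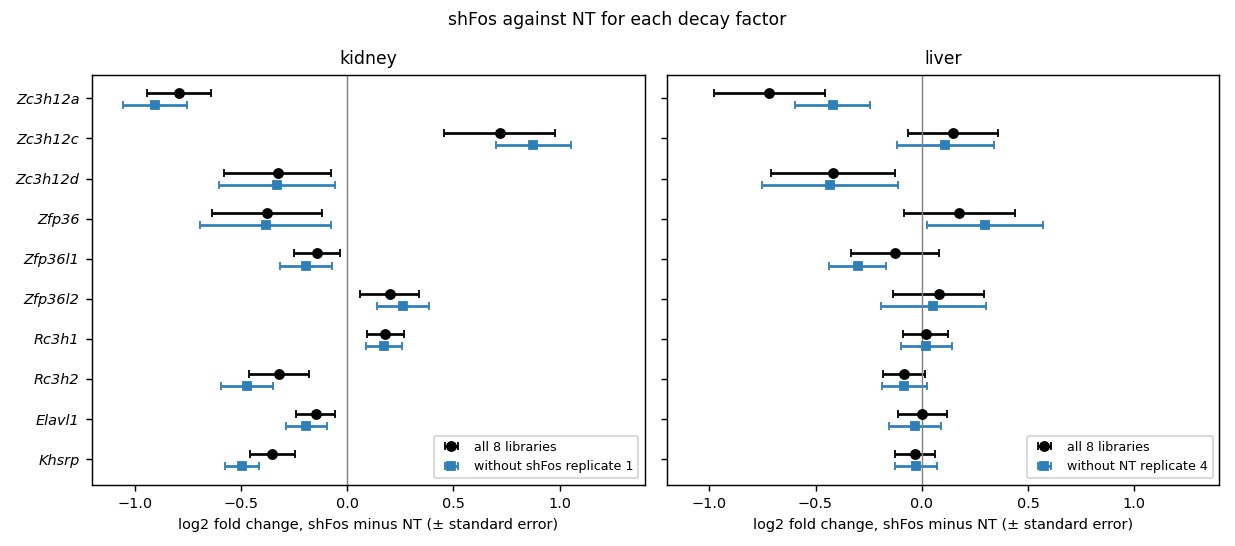
log2 fold change of shFos minus NT for the 10 members with its standard error in kidney (left) and liver (right), with all 8 libraries (circles) and with a library left out (squares). In liver this was NT replicate 4, which stood apart by chi-square. In kidney it was shFos replicate 1, the library whose omission raised the number of genes called most, so the squares there are no corrected estimate. In kidney *Zc3h12a* lies at -0.79 and *Zc3h12c* at 0.72, and in liver *Zc3h12a* moves from -0.72 to -0.42 when NT replicate 4 is left out.

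The kidney contrast and not the liver brought *Zc3h12a* to the list, so the members were tested in liver. Earlier results of these data were known by then, and kidneys and livers may come from the same mice, so this is not an independent test. None of the 10 was called by edgeR (0% of 13144 genes) or by DESeq2 (0.275% of genes), an unadjusted p under 0.05 was found for 1 member, *Zc3h12a*, beside 6.74% of all genes, and no member had groups that did not overlap, beside 4.31% of all genes (1.52% lower and 2.79% higher). The median log2 fold change of the members was -0.01, with 5 negative and 5 positive, and that of all genes was -0.01.

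*Zc3h12a* was measured in NT livers at 6.40, 9.81, 8.38 and 16.04 CPM (TMM-scaled within liver) and in shFos livers at 6.06, 6.72, 6.52 and 5.44 CPM. The shFos livers lay close together, and NT replicate 1 was within their range while NT replicate 4 stood far above. The log2 fold change was -0.72 ± 0.26, with an unadjusted p of 0.0224 and an adjusted p of 0.714 by edgeR (0.330 to 0.959 over the alternatives), and it was -0.42 ± 0.18 without NT replicate 4. In that library the neutrophil marker sum was 116 CPM, against 23.0 to 40.0 CPM in the other NT livers and 9.33 to 40.9 CPM in the shFos livers, and of the 7 neutrophil markers 6 passed the filter, each with a negative log2 fold change. *Ly6g* had at most 3 reads in every shFos liver. The hepatocyte marker sum was 45198 CPM in NT replicate 4 and 119610 to 191240 CPM in the other NT livers. The neutrophil sums of NT and shFos livers overlapped (exact permutation p = 0.171, adjusted p = 0.411), and the part of these cells in the *Zc3h12a* values was not tested.

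The other Regnases did not separate in liver. *Zc3h12c* was the rarest member, at 2.69 ± 0.610 CPM in NT and 2.98 ± 0.158 CPM in shFos, with 41 to 56 reads per library, and its log2 fold change of 0.15 had an interval of ± 2 standard errors from -0.27 to 0.57. *Zc3h12d* averaged 8.37 ± 3.31 and 6.27 ± 1.69 CPM with a log2 fold change of -0.42 (-1.0 to 0.17), which became -0.14 without NT replicate 2, the highest library.

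*Zfp36* was measured at 64.8, 93.8, 78.7 and 110.5 CPM in NT livers and at 77.1, 77.2, 155.3 and 83.3 CPM in shFos livers. One library of shFos, replicate 3, set the direction, since the log2 fold change was 0.18 ± 0.26 with it and -0.14 without it. *Zfp36l1* averaged 249.1 ± 66.1 CPM in NT and 228.3 ± 26.8 CPM in shFos, and *Zfp36l2* 31.1 ± 9.91 CPM and 32.8 ± 3.69 CPM. Their log2 fold changes of -0.13 and 0.08 had intervals of -0.54 to 0.29 and -0.35 to 0.51, and both changed sign when NT replicate 1 was left out.

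The narrowest intervals belonged to the remaining genes. *Rc3h1* had a log2 fold change of 0.02 (-0.20 to 0.23), *Rc3h2* of -0.09 (-0.28 to 0.11), *Elavl1* of 0.00 (-0.23 to 0.23) and *Khsrp* of -0.03 (-0.22 to 0.16). Adjusted p-values of the 9 members other than *Zc3h12a* were 0.762 to 0.997 by edgeR.

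For the difference of the shFos effect between tissues (liver effect minus kidney effect, on the log2 scale), which contains the kidney contrast and is therefore a description, *Zc3h12a* had 0.09 ± 0.31, *Zfp36* 0.57 ± 0.39, *Zc3h12c* -0.54 ± 0.34, *Khsrp* 0.34 ± 0.15 and *Rc3h2* 0.25 ± 0.18. Without liver NT replicate 4 the value of *Zc3h12a* was 0.40. The other 5 lay between -0.14 and 0.17. After correction for GC content *Khsrp* fell to 0.11. With a replicate block added to that correction *Khsrp* was at 0.12 and *Rc3h2* at 0.44. edgeR called 0 members and 0% of all genes for this difference, and DESeq2 called 0 members and 2.33% of genes. Without kidney shFos replicate 1 edgeR called 1 member, *Khsrp*, and 7.99% of genes.

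To compare the tissues themselves, NT kidneys were tested against NT livers in the fit of all 16 libraries, with CPM rescaled by TMM over the 16. By this scaling 7 of 10 members were called by edgeR (64.7% of all genes), of which 6 were lower in kidney (30.2% of genes) and 1 was higher (34.4%), and DESeq2 called 8 (66.4% of genes). The scaling carried much of this result. The 20 most abundant genes took 25.2% to 31.5% of the reads in livers and 11.1% to 13.3% in kidneys, and with plain library totals in place of TMM the median log2 fold change of all genes moved from 0.05 to 1.10. With library totals 6 members were called (84.9% of all genes), all of them higher in kidney.

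*Zc3h12c* was the member called in the same direction by both scalings, which was the case for 44.2% of all genes. It averaged 8.60 ± 0.858 CPM in NT kidneys and 3.79 ± 0.843 CPM in NT livers (TMM over 16 libraries), without overlap. The log2 fold change was 1.18 ± 0.24 (adjusted p = 0.000436 by edgeR, 3.67e-05 to 0.00214 with each library left out in turn, and 1.84e-05 by DESeq2) and 2.24 ± 0.22 with library totals. Between shFos kidneys and shFos livers, which are other libraries, it was 1.73 (adjusted p = 1.06e-05 by edgeR). *Zc3h12d* and *Zfp36* were lower in kidney by TMM, with log2 fold changes of -1.56 ± 0.28 (adjusted p = 0.000149 by edgeR) and -1.42 ± 0.28 (adjusted p = 0.000381), and kept the sign without passing the threshold with library totals, at -0.52 and -0.39 (adjusted p = 0.106 and 0.203 by edgeR). *Zfp36l2* was positive in both, at 0.33 ± 0.19 (adjusted p = 0.150 by edgeR) and 1.34 ± 0.22 (adjusted p = 4.25e-05), and with libraries of one number treated as a pair within a treatment it was 0.37 with an adjusted p of 0.0403. *Rc3h2* was at 0.02 ± 0.12 by TMM and 1.07 ± 0.14 with library totals.

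The other 5 members changed sign with the scaling. By TMM *Zc3h12a* was at -0.73 ± 0.22 on the log2 scale (adjusted p = 0.00842 by edgeR), *Zfp36l1* at -0.90 ± 0.17 (adjusted p = 0.000283), *Rc3h1* at -0.22 ± 0.10 (adjusted p = 0.0524), *Elavl1* at -0.42 ± 0.10 (adjusted p = 0.00185) and *Khsrp* at -0.38 ± 0.10 (adjusted p = 0.00465). Without liver NT replicate 4 *Zc3h12a* was at -0.42 ± 0.17 (adjusted p = 0.0385 by edgeR). With library totals the 5 genes were at 0.30, 0.16, 0.82, 0.63 and 0.67. Relative to the median of all genes under the same scaling, each of the 5 was lower in kidney both times, as were *Zc3h12d*, *Zfp36* and, by little, *Rc3h2*. *Zc3h12c* and *Zfp36l2* were higher both times. The change of scaling moved the members and the median by similar amounts, so this repeat is no separate result.

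**Figure D3:**
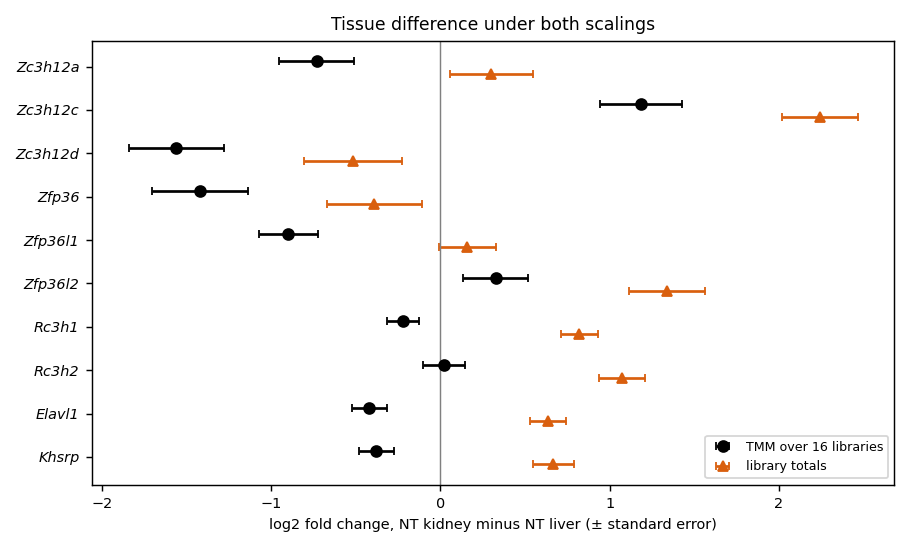
log2 fold change of NT kidney minus NT liver with its standard error for the 10 members, scaled by TMM over 16 libraries (circles) or by library totals (triangles). All members shift to the right with library totals, 5 of them cross 0, and *Zc3h12c* lies above 0 under both, at 1.18 and 2.24.

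Shares within a gene family do not depend on the scaling, since all members of a library are divided by the same factor. Of the 3 *Zfp36* family mRNAs per kb, *Zfp36l1* made up 66.5% ± 6.51 (SD, n = 4) in NT kidneys and 66.6% ± 10.8 in NT livers. *Zfp36l2* made up 16.4% ± 1.38 in NT kidneys (14.7% to 17.9%) and 7.25% ± 2.41 in NT livers (4.05% to 9.58%), and *Zfp36* made up 17.1% ± 6.00 and 26.1% ± 9.38. The ranges of *Zfp36l2* did not overlap between the tissues and those of the other two did. The paralog *Zc3h12b*, which is not a member, was left out of the shares (1.74 ± 0.361 CPM in NT kidneys and 0.162 ± 0.116 CPM in NT livers). Of the sum of the 3 *Zc3h12* members, *Zc3h12c* made up 25.5% ± 2.65 in NT kidneys (23.1% to 29.3%) and 7.88% ± 4.05 in NT livers (5.01% to 13.9%). *Zc3h12d* made up 17.7% ± 5.49 and 33.3% ± 8.28 and *Zc3h12a* 56.8% ± 3.97 and 58.9% ± 8.73. *Zc3h12c* thus took a larger part of this sum in every NT kidney than in any NT liver, and *Zc3h12d* a smaller one.

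Between treatments the kidney shares in the sum of the 3 *Zc3h12* members differed in the same way as the levels. *Zc3h12a* made up 57.2%, 59.1%, 51.1% and 59.9% of it in NT kidneys and 51.1%, 37.9%, 31.4% and 31.2% in shFos kidneys, and *Zc3h12c* made up 25.0%, 23.1%, 24.6% and 29.3% and then 31.2%, 44.9%, 56.1% and 51.1%. In replicates 2 to 4 of shFos *Zc3h12c* was the more abundant of both mRNAs per kb, which it was in no NT kidney and no liver, and shFos replicate 1 again lay closest to the NT kidneys. In the Roquin pair *Rc3h1* made up 37.5% ± 1.53 in NT kidneys and 46.3% ± 5.50 in shFos kidneys. In livers none of 7 family shares tested separated the treatments (exact permutation p = 0.143 to 0.80, adjusted p = 0.50 to 0.80). The share of *Zc3h12c* in liver was 7.88% ± 4.05 in NT and 11.5% ± 1.15 in shFos, and without NT replicate 1 the groups did not overlap (exact permutation p = 0.0286). The share of *Rc3h1* in its pair was 41.6% ± 1.98 in NT and 43.3% ± 0.380 in shFos livers, and without NT replicate 3 these did not overlap either (exact permutation p = 0.0286). In each case the library left out was the only NT liver not below all shFos livers, so the separation followed from the omission. The p is the smallest such a comparison can give, is unadjusted and was picked from many omissions. With all libraries it was 0.143 for both shares, and no difference is read from them.

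**Figure D4:**
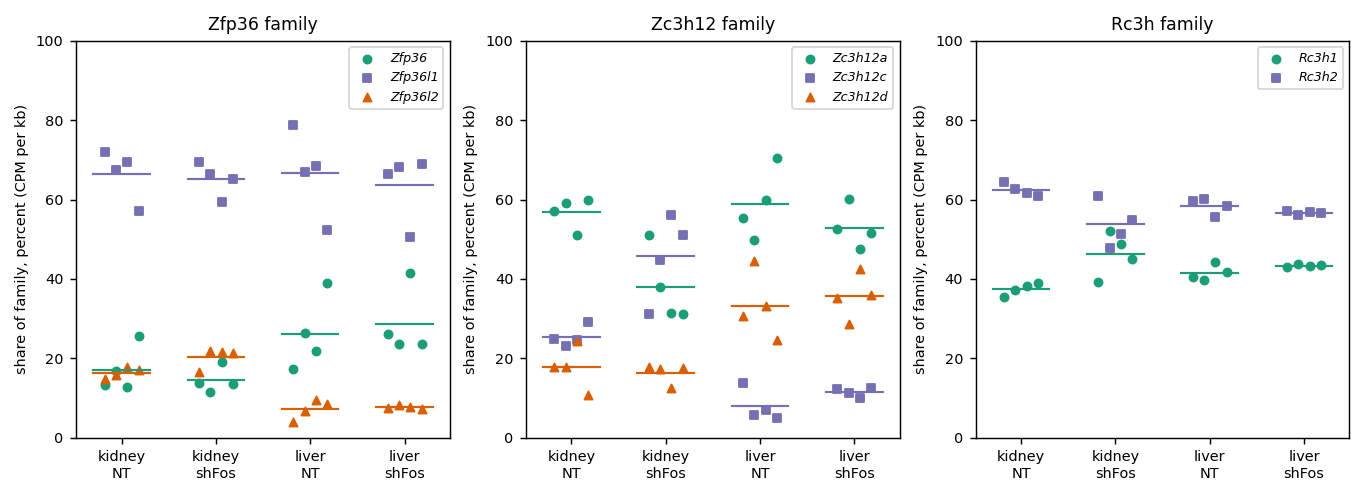
Share of each mRNA in its family, in percent of the summed CPM per kb of the members of that family, for every library of the 4 groups, with a line at the mean of 4 libraries. *Zfp36l1* holds about the same share in both tissues, *Zfp36l2* and *Zc3h12c* hold more in kidneys than in livers, and the shares of *Zc3h12a* and *Zc3h12c* cross in 3 of 4 shFos kidneys.

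To set the decay factors beside the mRNAs they act on, 35 transcripts known as targets of at least one of these proteins were examined. In kidney 24 passed the filter, and the 11 that did not, among them *Il6*, *Ifng*, *Csf2* and *Il2*, were too rare to be compared; *Il6* had 0 to 7 reads per library in either tissue. Of the 24, 13 were negative and 11 positive, and the median log2 fold change was -0.31, against 0.00 over all genes. An unadjusted p under 0.05 by edgeR was found for 9, all lower in shFos, beside 31.9% of all genes in either direction and 14.8% lower, and none was called after adjustment. DESeq2 called 5, all lower (*Nfkbiz*, *Cxcl1*, *Nfkbid*, *Il1b* and *Fos*; 7.97% of all genes were called lower). *Fos*, the target of the hairpin, belongs to the 35 and was counted among the 13, the 9 and the 5. This list was compiled with results of these libraries known and is no independent evidence of a direction.

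*Nfkbiz*, which encodes the atypical IkB protein IkB-zeta and is cut by the *Zc3h12a* product, was measured in kidney at 28.0, 30.7, 25.2 and 42.7 CPM in NT and at 21.5, 12.04, 14.02 and 13.2 CPM in shFos. *Cxcl1* was measured at 2.50, 4.18, 2.15 and 3.74 CPM in NT and at 1.48, 1.46, 1.14 and 1.15 CPM in shFos. For both genes all shFos kidneys lay below all NT kidneys, with log2 fold changes of -1.06 ± 0.22 and -1.25 ± 0.28 and an adjusted p of 0.0660 by edgeR for each (0.00126 and 0.00672 by DESeq2). The smallest p in the other direction belonged to *Ccnd1*, the cyclin D gene, at 0.28 ± 0.15 (adjusted p = 0.220 by edgeR), and to *Il1rn*, the interleukin-1 receptor antagonist, at 0.53 ± 0.29 (adjusted p = 0.247). *Nfkbiz* and *Zc3h12a* were thus both lower in the shFos kidneys, the transcript and the nuclease that degrades it, and mRNA half-lives were not measured.

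In liver 22 targets passed the filter, 15 with a negative and 7 with a positive log2 fold change and a median of -0.42, against -0.01 over all genes, of which 52.3% were negative. *Fos*, the target of the hairpin, was counted among the 15. No target was called by edgeR and 1 by DESeq2, *Ier3*, an immediate early response gene (0.145% of all genes were called lower). It was measured at 4.42, 6.52, 5.21 and 8.94 CPM in NT livers and at 1.57, 3.44, 1.59 and 1.56 CPM in shFos livers, without overlap, and its log2 fold change of -1.62 ± 0.34 had an adjusted p of 0.712 by edgeR and 0.0128 by DESeq2. Several other values rested on NT replicate 4. *Lcn2* was at 6151 CPM there and at 93.1 to 741.6 CPM in the other NT livers, and its log2 fold change of -3.73 became -1.40 without that library. *Cxcl1* was at 175.5 CPM in NT replicate 4, 10.98 to 22.5 CPM in the other NT livers and 4.77 to 21.3 CPM in shFos livers. All 9 macrophage markers were negative in liver (median log2 fold change -0.67), with sums of 349 to 1693 CPM in NT and 461 to 819 CPM in shFos livers that overlapped (exact permutation p = 0.371, adjusted p = 0.557), and the 6 neutrophil markers that passed had a median of -1.51. The part of these cells in the target values was not tested. The smallest p among targets with a positive value belonged to *Vegfa*, at 0.21 ± 0.14 (adjusted p = 0.757 by edgeR).

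**Figure D5:**
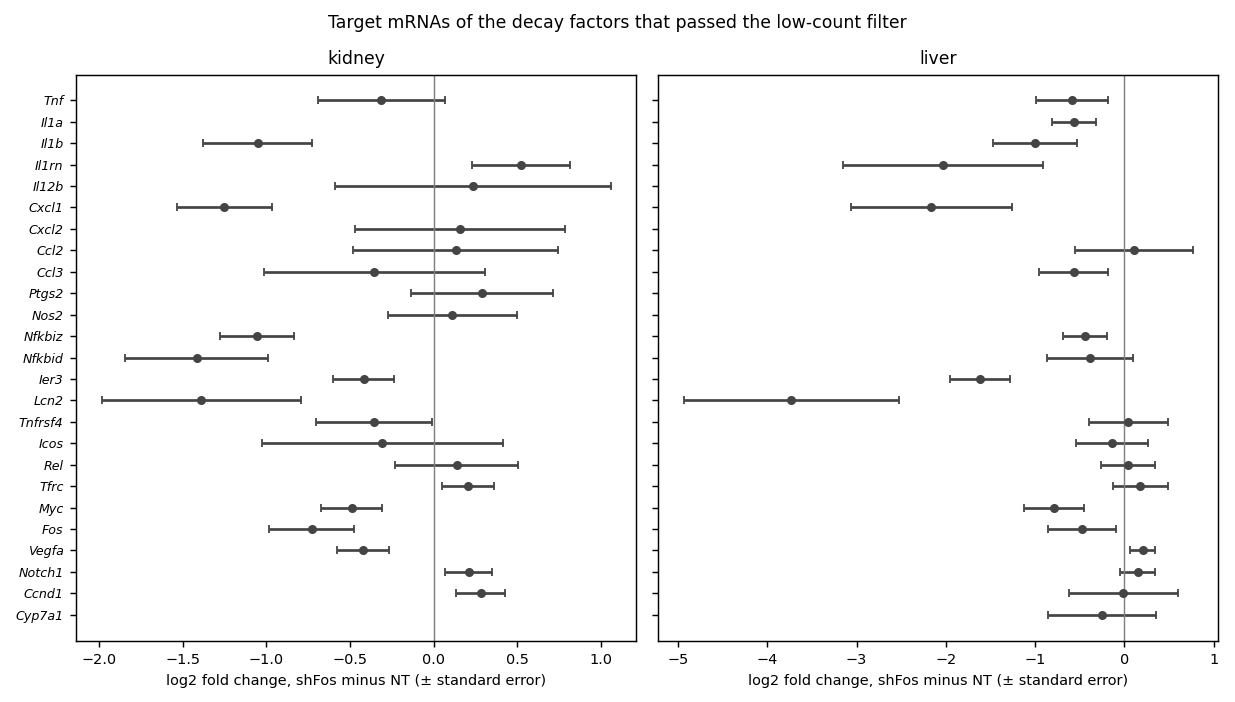
log2 fold change of shFos minus NT with its standard error for the target mRNAs that passed the low-count filter, 23 of the 24 genes in kidney and 21 of the 22 in liver, with a separate horizontal axis for each tissue. *Cxcl1* (-1.25) and *Nfkbiz* (-1.06) lie below 0 in kidney, and the wide intervals of *Lcn2*, *Cxcl1* and *Il1rn* in liver go with 1 high NT library.

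The targets were also split by presence of the TTATTTATT nonamer. In kidney, of 7 targets with a nonamer 3 were lower and the median log2 fold change was 0.14, and of 17 without one 10 were lower, with a median of -0.35. Over all genes tested 42.7% of those with a nonamer and 48.6% of those without were lower. In liver 3 of 5 targets with a nonamer were lower (median -0.47) and 12 of 17 without one (median -0.39), beside 59.9% of all genes with a nonamer and 52.1% of those without. *Fos*, the target of the hairpin, has a nonamer and was among the lower targets in both tissues. The liver median of -0.47 was its own value.

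The machinery that these proteins recruit was followed with 36 deadenylation, decapping and exosome genes, all of which passed the filter in both tissues. In kidney 18 were higher and 18 lower, the median was -0.01 on the log2 scale, and none was called by edgeR. DESeq2 called 2 higher (*Cnot1* and *Dcp2*; 10.3% of all genes) and 6 lower (7.97%). *Cnot1*, the scaffold of the CCR4-NOT deadenylase, was measured at 100.9, 92.5, 107.6 and 110.2 CPM in NT kidneys and at 111.7, 137.6, 175.1 and 140.1 CPM in shFos kidneys, a log2 fold change of 0.46 ± 0.13 (adjusted p = 0.0719 by edgeR), and the decapping enzyme gene *Dcp2* had 0.41 ± 0.13 (adjusted p = 0.0821). *Pan3* and *Exosc4*, which encode subunits of the PAN2-PAN3 deadenylase and of the exosome, had -0.68 ± 0.18 and -0.32 ± 0.08 (adjusted p = 0.0663 and 0.0660 by edgeR). *Pan2* was measured at 48.9, 53.2, 48.5 and 72.2 CPM in NT kidneys and at 48.4, 17.5, 20.6 and 20.1 CPM in shFos kidneys. Replicate 1 of shFos thus lay just below the lowest NT value and the other 3 far below it. The groups did not overlap, which in this direction was so for 8.04% of all genes. For *Khsrp* and *Rc3h2* replicate 1 of shFos lay within the NT range instead. In liver 14 of the 36 were higher and 22 lower with a median of -0.04, none was called by edgeR or DESeq2, and *Pan2* had 0.24 ± 0.10 (adjusted p = 0.733 by edgeR).

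Of 24 other AU-rich element binding proteins and cofactors, 21 passed in kidney and 19 in liver, and *Elavl2*, *Elavl4* and *Zfp36l3* passed in neither. In kidney 12 were higher and 9 lower with a median of 0.04, none was called by edgeR, and DESeq2 called 2 higher and 4 lower (10.3% and 7.97% of all genes). *Cpeb4*, a poly(A) regulator, was at 0.38 ± 0.13 on the log2 scale (adjusted p = 0.0951 by edgeR). *Upf1*, the nonsense-mediated decay helicase with which the *Zc3h12a* product works, was measured at 84.8 to 94.5 CPM in NT and 59.5 to 80.7 CPM in shFos kidneys (-0.41 ± 0.10, adjusted p = 0.0660 by edgeR), and *Tial1*, an AU-rich element binding translational repressor, had -0.51 ± 0.13 (adjusted p = 0.0663). In liver 7 were higher and 12 lower with a median of -0.06, and none was called by edgeR or DESeq2. *Arid5a*, whose product opposes Regnase on *Il6* mRNA, had a log2 fold change of -0.93 ± 0.43 in liver (adjusted p = 0.734 by edgeR) and -0.37 without NT replicate 4, in which it was at 8.52 CPM against 2.29 to 3.92 CPM in the other NT livers.

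Finally, genes were ranked by how closely their profile over the 8 libraries of a tissue followed that of *Zc3h12a*, as the root-mean-square distance between standardised log2 CPM. In kidney the nearest of 14891 genes were *Fam50a* (0.181), *Taf8* (0.190) and *Selenom* (0.217), against 1.34 for the median gene. All 3 had smaller amplitudes than *Zc3h12a*, with log2 fold changes of -0.17 to -0.26. Among the members *Khsrp* was nearest in kidney, at rank 612 with a distance of 0.467, and *Zc3h12c* and *Rc3h1* were among the farthest, at ranks 11570 and 12046. In liver the nearest of 13143 genes were *Rtca* (0.177), *Junb* (0.219), an AP-1 subunit gene, and *Cerkl* (0.232), against 1.30 for the median gene. *Junb* was measured at 24.9, 46.2, 35.0 and 78.2 CPM in NT livers and at 21.6, 28.1, 32.6 and 18.5 CPM in shFos livers, and like *Zc3h12a* it was highest in NT replicate 4. The nearest member in liver was *Zc3h12d*, at rank 2330.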

How the data were processed

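Total RNA of whole kidney and liver was sequenced. The deposited files hold raw read counts per gene symbol, which the authors made, per the labels, with Trimmomatic 0.39, HISAT2 2.2.1 and HTSeq 0.12.4 on mm10; reads were counted without regard to strand. Summary lines (no feature, 22.1% to 26.7% of reads in kidney and 13.4% to 15.7% in liver, and ambiguous) were left out of library sizes. Counts were filtered with filterByExpr, TMM-scaled and tested with edgeR 4.0.16 (quasi-likelihood, robust; R 4.3.3), adjusted over all genes tested, with DESeq2 1.42.0 as an alternative. A call is an adjusted p under 0.05. Scripts were tested on simulated data. Standard errors are the log2 fold change divided by the square root of F.

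Members and gene lists were chosen with earlier results of these data known. Named from the lists were all members and, per list and tissue, the 2 genes of smallest p in each direction, and the 3 genes nearest to *Zc3h12a*; genes called by DESeq2 alone were named after their values were seen. Results of some genes that these rules name are not reported here. Lengths, 3′ UTRs (longest coding sequence) and coordinates came from GENCODE M21, which matched 98.2% of symbols. CPM means TMM within a tissue, except where TMM over 16 libraries is stated. A floor of 3 counts equals 0.164 to 0.211 CPM; this covers counting error only.

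The labels do not say that equal replicate numbers mark one mouse. Deviations from group means correlated by 0.115 to 0.322 between same-numbered NT kidneys and livers (4 of 4 above 0.1), so a pairing fit is given for that comparison. Between same-numbered shFos kidneys and livers they correlated by 0.052 to 0.136. Every shFos kidney matched the shFos liver of its own number best, as did NT kidneys 2 to 4 with NT livers. Between NT and shFos of a tissue, which were not paired, the correlations were -0.24 to 0.13 and no library matched its own number best. The labels do not name separate animals, so p-values measure the spread between these libraries. HTSeq drops reads that fit 2 genes. In GENCODE M21, *Zfp36*, *Zfp36l1*, *Zfp36l2*, *Elavl1* (*Ccl25*), *Khsrp* and *Zc3h12c* share exons with genes on the opposite strand. Because strand was not used, this may lower their counts where the other gene was in the annotation used for counting, which was not checked.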

Additional observations from a re-analysis of the deposited data

Results flagged for a closer look

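Among the 40 groups of 4 libraries (10 genes in 4 groups), 5 held a library far from the other 3 by Dixon's test, where chance gives about 1 in 20 groups, or 2 of 40. Of these, 3 concerned *Zfp36*, which stood at 102.6 CPM in kidney NT replicate 4 (47.4 to 56.6 CPM in the others), at 65.8 CPM in kidney shFos replicate 3 (42.4 to 45.5 CPM) and at 155.3 CPM in liver shFos replicate 3 (77.1 to 83.3 CPM). *Rc3h1* was low in liver NT replicate 2, at 17.1 CPM against 20.2 to 20.7 CPM, and *Elavl1* was high in liver NT replicate 1, at 44.1 CPM against 35.8 to 36.9 CPM.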

How the results depend on the processing

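The number of genes called in kidney depended on the method: edgeR called 0, DESeq2 2663, edgeR without a filter on low counts 3, a fit of all 16 libraries 994, and leaving out 1 library gave 0 to 4126 (0 to 4 members; 4126 without shFos replicate 1, 3 without NT replicate 4). Members called were 2 by DESeq2 and 1, *Zc3h12a*, in the fit of 16. DESeq2 called 36 genes in liver and 282 for the tissue difference of the effect, where leaving out a library gave 0 to 1246 genes and 0 to 1 member. Between NT tissues a fold above 2 or below 0.5 left 6217 of the 15421 genes tested and 3 of 10 members. The causes of these differences were not tested. The replicate block gave 0 calls in either tissue and for the tissue difference. Between NT tissues it called 9906 of the 15421 genes and 8 of 10 members. A block within treatment called 10211 genes and 8 members. That block was chosen after seeing the data, as was the scaling by library totals. Beside *Zfp36l2* the blocks changed no other call of a member. Equal numbers across treatments marked no pairs.

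Several signs turned with the processing or when 1 library was left out. In kidney *Rc3h1* went from 0.18 to -0.0128 after correction for GC content. The tissue difference of the shFos effect also changed sign in some settings for 4 members. Over all settings it ranged from -0.13 to 0.40 for *Zc3h12a* and from -0.31 to 0.21 for *Zc3h12d*. For *Zfp36l1* it ranged from -0.13 to 0.17 and for *Zfp36l2* from -0.28 to 0.10. In liver *Elavl1* was at 0.00 (-0.0015) with DESeq2, -0.0084 with GC correction and -0.0105 with GC correction and block. With 1 library left out, liver log2 fold changes ranged from -0.0604 to 0.0688 (*Elavl1*), -0.1003 to 0.0005 (*Khsrp*), -0.05 to 0.0738 (*Rc3h1*), -0.14 to 0.30 (*Zfp36*), -0.30 to 0.0034 (*Zfp36l1*) and -0.10 to 0.29 (*Zfp36l2*). Between tissues *Rc3h2* ranged from -0.0255 to 0.0576 and was -0.23 in shFos libraries, and library totals gave 0.30 (*Zc3h12a*), 0.16 (*Zfp36l1*), 0.82 (*Rc3h1*), 0.63 (*Elavl1*) and 0.67 (*Khsrp*). With 1 library left out, the *Fos* difference in kidney was -2.52 to -1.69 CPM, and -1.69, -1.92, -2.43, -2.37 and -1.83 had an exact permutation p of 0.0571; the summed macrophage markers in kidney ranged from -193 to 33.2 CPM, T cell markers from -10.5 to 6.01 CPM in kidney and -2.56 to 2.73 CPM in liver; and liver shares from -1.66 to 6.91 (*Zfp36*), -7.79 to 1.25 (*Zfp36l1*), -0.617 to 1.23 (*Zfp36l2*) and -0.561 to 6.05 percentage points (*Zc3h12d*). Counts of 41 to 225 reads limit *Zc3h12c* and *Zc3h12d* in liver.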

Other observations

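The libraries with the highest *Zfp36* in NT and in shFos kidneys had the same replicate numbers as those with the highest *Zfp36* in livers. In NT, replicate 4 was highest in kidney (102.6 CPM) and in liver (110.5 CPM), and in shFos, replicate 3 was highest in kidney (65.8 CPM) and in liver (155.3 CPM). *Lcn2* was also highest in replicate 4 of NT in both tissues, at 217.5 CPM in kidney and 6151 CPM in liver. Whether a number marks one mouse is not given in the labels.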
